A study of Homo sapiens with 4 samples.

Results

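The genes described here are 10 chaperones and cochaperones of the endoplasmic reticulum (ER): HSPA5, HSP90B1, HYOU1, CALR, CANX, DNAJB9, DNAJB11, DNAJC3, SDF2L1 and FICD. They were picked by gene symbol from a count table of 56271 rows, in which each of the 10 had a row of its own. All 10 mRNAs were higher in SKBR3 cells overexpressing VIRMA than in control cells. FICD, which passed the filter on low values through the VIRMA-overexpressing libraries alone, is counted apart from the other 9 below. Of all tested genes, 35.1% were called higher and 35.9% lower at an edgeR adjusted p below 0.05. In 42.7% both VIRMA-overexpressing libraries lay above both control libraries. Together the 10 mRNAs took 0.605% and 0.597% of all counts in the VIRMA-overexpressing libraries against 0.312% and 0.311% in the control libraries. The increases ran from 1.25-fold for CANX to 2.69-fold for HSPA5, the major chaperone of the ER lumen.

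Secreted and membrane proteins fold in the ER. HSPA5 (BiP), a member of the HSP70 family, binds unfolded stretches in cycles of ATP hydrolysis that J-domain proteins such as DNAJB9, DNAJB11 and DNAJC3 start and that HYOU1 helps to reset by exchanging the nucleotide, and HSP90B1 (GRP94) takes on later folding intermediates. CALR and CANX hold newly made glycoproteins through their sugars, SDF2L1 works with DNAJB11 in keeping HSPA5 clients soluble, and FICD modifies HSPA5 with AMP and removes the modification. When unfolded protein builds up, the transcription factors ATF6 and XBP1 raise many of these genes through ER stress response elements (ERSE) in their promoters.

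SKBR3 is an established HER2-positive breast cancer line, and VIRMA is a subunit of the complex that writes N6-methyladenosine on RNA. Poly-A RNA was sequenced in 4 libraries, biological duplicates of each group. Both groups carried a lentiviral vector driven by the human ubiquitin C promoter and were sorted on eGFP: the eGFP control cells expressed eGFP alone, and the VIRMA-overexpressing cells expressed HA-tagged full-length VIRMA together with eGFP, on top of their own VIRMA gene. Each group was thus a sorted pool, and an effect of VIRMA and a difference between the pools cannot be told apart. The labels give the same culture text for each library, with a hypoxia chamber and lysis for protein. The paper describes that chamber for cells lysed for protein and names no hypoxia in its account of the mRNA sequencing. The oxygen level of these cultures was therefore uncertain and is taken as equal in both groups.

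Total counts per library ran from 81446932 to 86375474. VIRMA, listed under the older symbol KIAA1429, had 710 and 682 counts in the control libraries and 3437 and 3460 in the VIRMA-overexpressing libraries, a log2 fold change of 2.29 (edgeR adjusted p = 9.74e-26, SE 0.0685). Of 8 epithelial markers of the line 7 passed the filter on low values, while CDH1 had only 11 and 5 counts in the control libraries and 17 and 33 in the others. The summed level of 8 erythroid genes was 28.0 and 20.3 CPM (counts scaled to library size after TMM, not to length) in the control libraries and 0.479 and 0.323 in the VIRMA-overexpressing ones, with HBB at 2137, 1543, 0 and 0 counts. Fibroblast markers summed to between 8.43 and 13.8 CPM and leukocyte markers to between 6.05 and 7.63 CPM. Of 5 markers of plasma cells, secretory cells rich in ER chaperones, JCHAIN and TNFRSF17 were at 0 in all libraries. The summed level of these 5 was 1632 and 1657 CPM in the control libraries and 1506 and 1517 CPM in the VIRMA-overexpressing ones. Of the 3 that were tested, SDC1 fell by 0.37 on the log2 scale (edgeR adjusted p = 9.70e-15), while MZB1, itself a lumen cofactor of HSP90B1, rose by 0.63 (edgeR adjusted p = 9.34e-14) and XBP1 rose by 0.11 (edgeR adjusted p = 0.000441). The part of these markers in the chaperone values was not tested.

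The genes lie on 9 chromosomes (GRCh38, coordinates of the count table): HSPA5 at chr9:125234853-125241330, HSP90B1 at chr12:103930107-103953645, HYOU1 at chr11:119044189-119057202, CALR at chr19:12938578-12944489, CANX at chr5:179678628-179730925, DNAJB9 at chr7:108569568-108574850, DNAJB11 at chr3:186567403-186585800, DNAJC3 at chr13:95677139-95794989, SDF2L1 at chr22:21642261-21644298 and FICD at chr12:108515185-108525837. HSPA5 and HYOU1 are on the minus strand and the others on the plus strand, and all are protein-coding. Counts were taken over exons, with merged exonic lengths from 1099 bases in SDF2L1 to 7694 in HYOU1. RPKM below means counts scaled to that length in kilobases and to library size after TMM.

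Promoter windows from RefSeq (GRCh38.p14; 250 bases before to 50 after each annotated start) were read for ERSE, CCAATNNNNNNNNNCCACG, and for its compact form ERSE-II, ATTGG and CCACG with 1 free base between, on both strands. All 10 genes had a window, 13 in all, and the matches are shown because these elements are the known control sites of the family. Capitals mark the fixed letters, each sequence is written 5′ to 3′ on the strand of the motif, and positions are counted from the annotated start.

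HSPA5 (ERSE, -66 to -48): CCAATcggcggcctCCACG
HSP90B1 (ERSE, -194 to -176): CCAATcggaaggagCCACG
HSP90B1 (ERSE, -89 to -71, strand opposite to the gene): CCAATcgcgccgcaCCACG
CALR (ERSE, -225 to -207, strand opposite to the gene): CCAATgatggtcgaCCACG
CANX (ERSE, chr5:179698778-179698796, within 3 of its 4 windows): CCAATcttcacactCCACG
FICD (ERSE, -154 to -136): CCAATgggagtggcCCACG
HYOU1 (ERSE-II, -185 to -175 and -79 to -69, strand opposite to the gene): ATTGGaCCACG
SDF2L1 (ERSE-II, -188 to -178, strand opposite to the gene): ATTGGtCCACG

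Of the 10 genes, 5 held an ERSE match and 2 others an ERSE-II match. Over all genes with a window, members included, ERSE was found in 25 of 27305 (0.0916%) and ERSE-II in 19 (0.0696%). By window, ERSE was in 27 of 35116 (0.0769%) and ERSE-II in 19 (0.0541%). Of these windows, 7 with ERSE and 2 with ERSE-II belong to members. Windows of DNAJB9, DNAJB11 and DNAJC3 held no exact match of either form. Only exact letters within these windows were sought, so sites with a changed base or farther out would be missed. The XBP1 and ATF6 core TGACGTGG was in the HYOU1 window, where it overlapped the farther ERSE-II, and in 0.729% of all windows. TGATGNAAT, a composite site of C/EBP and ATF factors, was in none of the members' windows and in 0.991% of all windows. The matches in HSP90B1 and CANX lie within exon blocks of the count table, upstream of or across the RefSeq starts used.

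**Figure D1:**
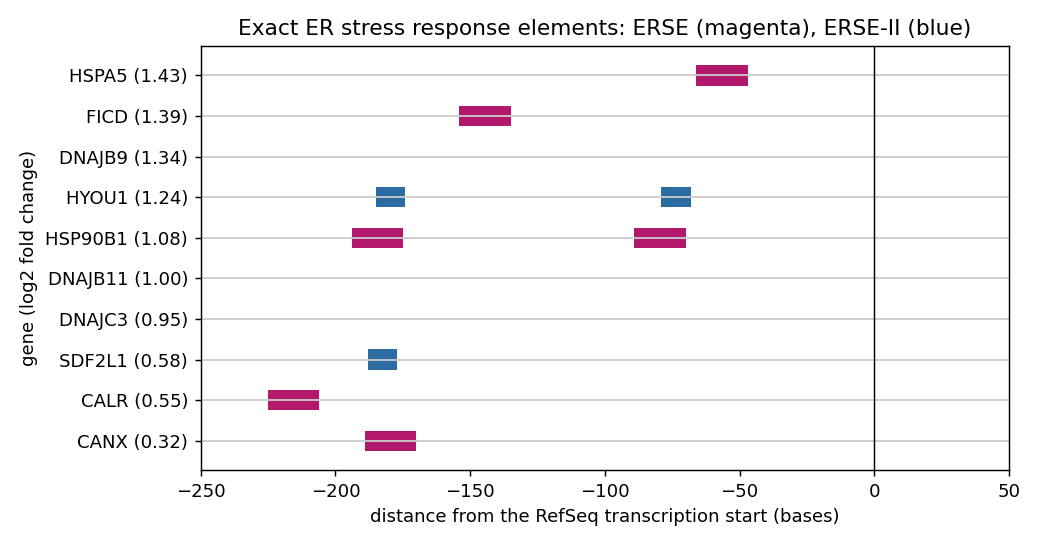
Positions of ERSE and ERSE-II matches in the promoter window of each gene (x axis, distance from the annotated start in bases; y axis, genes; CANX is drawn in 1 of the 3 windows that hold its match). HSPA5, HSP90B1, CALR, CANX and FICD carried ERSE, and HYOU1 and SDF2L1 carried ERSE-II. DNAJB9, DNAJB11 and DNAJC3 had no exact match of either form in their windows.

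Genes with RPKM above 1 in at least 2 libraries, 12205 in all, were tested with the quasi-likelihood test of edgeR and Benjamini-Hochberg adjustment over all of them. Of the members, 9 were above 1 in every library, and all 9 were higher at an adjusted p below 0.05, with a median log2 fold change of 1.00. FICD had passed the filter through the VIRMA-overexpressing libraries alone and is counted apart. The shift between groups was broad in these cells: 35.1% of tested genes were called higher and 35.9% lower, the median log2 fold change of all tested genes was 0.01, and both VIRMA-overexpressing libraries lay above both control libraries in 42.7%. A log2 fold change above 1 at that p was reached by 4.52% of tested genes, among them HSPA5, HSP90B1, HYOU1, DNAJB9 and DNAJB11. FICD, counted apart, also reached it. With 2 libraries against 2, the smallest p of an exact two-sided permutation test is 0.333, and the edgeR p-values therefore lean on spread pooled over genes.

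HSPA5 had 140.6 and 140.2 RPKM in the control libraries and 378.1 and 376.9 RPKM in the VIRMA-overexpressing libraries. Its control values differed by less than 1 RPKM, and the groups lay far apart. The log2 fold change was 1.43 (edgeR adjusted p = 3.78e-32, SE 0.0262), the largest of the 10 members and rank 192 of all tested genes by fold change. Without control replicate 2, FICD (1.65) and DNAJB9 (1.45) lay above HSPA5 (1.42). In counts, HSPA5 went from 45712 and 45868 to 126528 and 123130.

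HSP90B1, the HSP90 of the ER, had 103.0 and 103.7 RPKM in the control libraries and 218.8 and 219.6 RPKM in the VIRMA-overexpressing libraries. The groups did not overlap, and the log2 fold change was 1.08 (edgeR adjusted p = 3.47e-28, SE 0.0270). HYOU1, the large HSP70 relative that exchanges the nucleotide of HSPA5, had 28.8 and 27.3 RPKM in control and 68.3 and 64.6 RPKM in VIRMA-overexpressing libraries. Its log2 fold change was 1.24 (edgeR adjusted p = 1.71e-27, SE 0.0326). HYOU1 thus rose by less than HSPA5 on this scale, and the ratio of HSPA5 to HYOU1 in RPKM was 4.88 and 5.14 in control against 5.54 and 5.83 in VIRMA-overexpressing libraries.

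The lectins changed less. CALR, the soluble lectin, had 347.0 and 343.7 RPKM in control and 506.7 and 507.8 RPKM in VIRMA-overexpressing libraries, a log2 fold change of 0.55 (edgeR adjusted p = 2.65e-20, SE 0.0254). CANX, its membrane-bound counterpart, had 117.9 and 122.7 RPKM in control and 150.3 and 149.3 RPKM in VIRMA-overexpressing libraries. Its log2 fold change of 0.32 (edgeR adjusted p = 1.14e-12, SE 0.0272) was the smallest of the 10, although the groups did not overlap. The CALR to CANX ratio in RPKM moved from 2.94 and 2.80 to 3.37 and 3.40.

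Among the J-domain cochaperones, DNAJB9 (ERdj4), which also loads HSPA5 onto the stress sensor IRE1, had 9.04 and 10.5 RPKM in control and 24.5 and 24.9 RPKM in VIRMA-overexpressing libraries. Its control libraries stood 0.21 apart on the log2 scale, far less than the log2 fold change of 1.34 (edgeR adjusted p = 2.72e-22, SE 0.0526). DNAJB11 (ERdj3), a soluble client-binding cochaperone, had 17.7 and 17.0 RPKM in control and 35.3 and 34.3 RPKM in VIRMA-overexpressing libraries, with a log2 fold change of 1.00 (edgeR adjusted p = 5.17e-24, SE 0.0343). DNAJC3 (p58IPK), which binds unfolded clients in the lumen, had 11.4 and 12.02 RPKM in control and 23.4 and 22.0 RPKM in VIRMA-overexpressing libraries. Its log2 fold change was 0.95 (edgeR adjusted p = 1.38e-21, SE 0.0395). In all 3 the groups stayed apart, and DNAJB9 went from below DNAJC3 in both control libraries to above it in both VIRMA-overexpressing libraries.

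SDF2L1 had 67.3 and 64.5 RPKM in control and 96.6 and 100.25 RPKM in VIRMA-overexpressing libraries, a log2 fold change of 0.58 (edgeR adjusted p = 1.18e-15, SE 0.0385). Its partner DNAJB11 therefore rose by more than SDF2L1 did on the log2 scale, with standard errors of 0.0343 and 0.0385. FICD was the least abundant member at 0.721 and 1.01 RPKM in control and 2.22 and 2.31 RPKM in VIRMA-overexpressing libraries. FICD counts were 256 and 360 against 810 and 823, its log2 fold change was 1.39 (edgeR adjusted p = 2.05e-11, SE 0.134), and its control libraries differed from each other by 0.48 on the log2 scale. With a filter that does not favour the higher group, at least 10 counts in every library, FICD stood at 1.36 with an edgeR adjusted p of 2.27e-09.

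**Figure D2:**
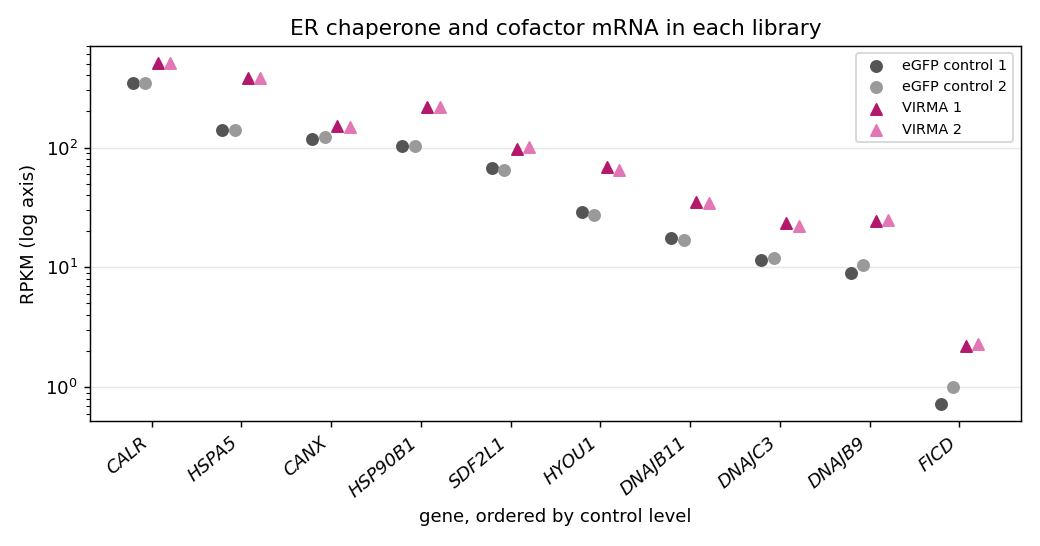
RPKM (log axis) of each gene in each of the 4 libraries, with genes ordered by control level (circles, eGFP control; triangles, VIRMA-overexpressing). Both VIRMA-overexpressing libraries lie above both control libraries in the 9 genes above RPKM 1 in every library, and in 42.7% of all tested genes. They do so in FICD too, which passed the filter on low values through the VIRMA-overexpressing libraries alone. The 2 control points of FICD are the farthest apart.

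In control libraries the order of RPKM was CALR, HSPA5, CANX, HSP90B1, SDF2L1, HYOU1, DNAJB11, DNAJC3, DNAJB9 and FICD. In VIRMA-overexpressing libraries HSP90B1 had passed CANX and DNAJB9 had passed DNAJC3, and in neither group did the libraries of neighbours in the order overlap. Summed over the 10 genes, RPKM was 843.6 and 842.5 in control and 1504 and 1502 in VIRMA-overexpressing libraries, while summed CPM rose from 3205 ± 8.53 to 5840 ± 28.3 (SD, n = 2), a 1.82-fold difference. HSPA5 made up 16.7% and 16.6% of the summed RPKM in control and 25.1% in each VIRMA-overexpressing library. CALR went from 41.1% and 40.8% to 33.7% and 33.8%, and CANX from 14.0% and 14.6% to 9.99% and 9.94%. The pool thus held a larger share of HSPA5 and a smaller share of lectins, although both lectin mRNAs were higher in level. In these bulk libraries a change in the number of cells with a given level and a change in RNA per cell cannot be told apart.

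**Figure D3:**
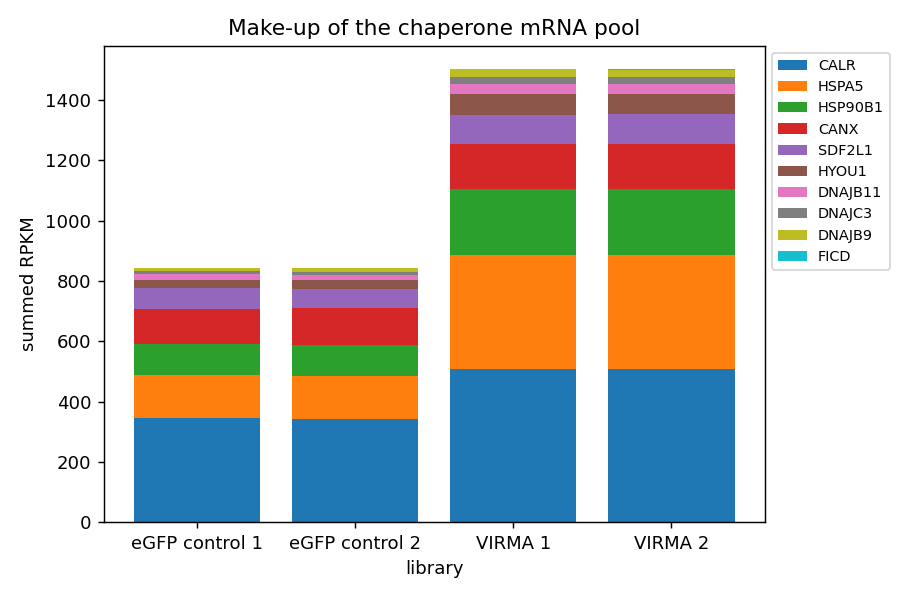
Summed RPKM of the 10 genes in each library, stacked by gene. The bars reach 843.6 and 842.5 in the control libraries and 1504 and 1502 in the VIRMA-overexpressing libraries, with the HSPA5 share going from 16.7% and 16.6% to 25.1% in each.

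Of the 3 J-domain mRNAs, DNAJB11 and DNAJC3 rose by less than HSPA5, while DNAJB9 could not be set apart from it. The ratio of HSPA5 to DNAJB11 in RPKM went from 7.94 and 8.24 to 10.70 and 10.99, and the ratio of HSPA5 to DNAJC3 from 12.3 and 11.7 to 16.2 and 17.1. The ratio of HSPA5 to DNAJB9 was 15.6 and 13.4 in control and 15.4 and 15.1 in VIRMA-overexpressing libraries, with overlapping groups. The ratio of HSPA5 to the sum of all 3 was 3.69 and 3.55 in control and 4.54 and 4.64 in VIRMA-overexpressing libraries. The ratio of HSPA5 to CALR went from 0.405 and 0.408 to 0.746 and 0.742. The ratio of HSPA5 to its modifier FICD was 195.0 and 139.1 in control and 170.6 and 163.4 in VIRMA-overexpressing libraries, so that the groups overlapped for this pair.

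Many cytosolic relatives of these chaperones took another course, while no mitochondrial relative was called lower. Of 22 cytosolic and mitochondrial relatives, 21 were tested. Of these, 13, all cytosolic, were called lower against a background of 35.9%, 4 were called higher and 4 were not called. The median log2 fold change of the 21 was -0.37, and 6 passed a 2-fold decrease, which 2.93% of tested genes did. Of the 13, HSPA4L and DNAJA4 passed the filter through the control libraries alone. HSPA8, the constitutive cytosolic HSP70, went from 148.4 and 146.1 RPKM to 41.4 and 42.2 RPKM, a log2 fold change of -1.82 (edgeR adjusted p = 1.15e-33, SE 0.0297). HSPA5 and HSPA8 were thus near each other in control cells, with a ratio of 0.948 and 0.960, and stood at 9.13 and 8.92 in VIRMA-overexpressing cells. The mitochondrial HSP70, HSPA9, rose by 0.67 (edgeR adjusted p = 1.27e-21), and the ratio of HSPA5 to HSPA9 went from 1.37 in each control library to 2.29 and 2.33. DNAJA3, a mitochondrial J-domain protein, rose by 0.15 (edgeR adjusted p = 4.12e-04).

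In the HSP90 family the cytosolic forms were lower where HSP90B1 was higher. HSP90AA1, the inducible cytosolic form, fell by 1.21 on the log2 scale (edgeR adjusted p = 1.32e-28), and HSP90AB1, the constitutive form, fell by 0.82 (edgeR adjusted p = 1.40e-24). HSP90B1 over HSP90AA1 in RPKM was 0.927 and 0.928 in control and 4.59 and 4.54 in VIRMA-overexpressing libraries, and HSP90B1 over HSP90AB1 went from 0.307 and 0.311 to 1.15 and 1.16. The mitochondrial TRAP1 had a log2 fold change of -0.01 (edgeR adjusted p = 0.741), a sign that turned with scaling by upper quartile (0.06) or by library totals (0.07). HYOU1 over HSPH1, a cytosolic counterpart, went from 3.36 and 3.27 to 16.7 and 16.2. HSPH1 had a log2 fold change of -1.07 (edgeR adjusted p = 2.95e-21). HSPA4, the other cytosolic counterpart compared, fell by less, at -0.23 (edgeR adjusted p = 4.71e-06). HYOU1 over HSPA4 went from 1.85 and 1.68 in control to 4.98 and 4.79 in VIRMA-overexpressing libraries.

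For the J-domain proteins, DNAJB11 over the cytosolic DNAJA1 was 0.418 and 0.395 in control and 1.72 and 1.81 in VIRMA-overexpressing libraries, with DNAJA1 at -1.11 (edgeR adjusted p = 4.39e-23). DNAJB1, a cytosolic cochaperone of HSPA8, had a log2 fold change of -0.08 (edgeR adjusted p = 0.0184) that was not called with upper-quartile scaling (-0.01). DNAJC7, another cytosolic cochaperone, rose by 0.38 (edgeR adjusted p = 3.27e-11). SDF2L1 over its ER paralogue SDF2 went from 3.22 and 3.12 to 5.95 and 6.32, since SDF2 fell by 0.37 (edgeR adjusted p = 7.14e-10) while SDF2L1 rose. The inducible HSPA1A and HSPA1B had log2 fold changes of -1.61 and -1.25, but they are near-identical copies whose reads the counting could split.

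**Figure D4:**
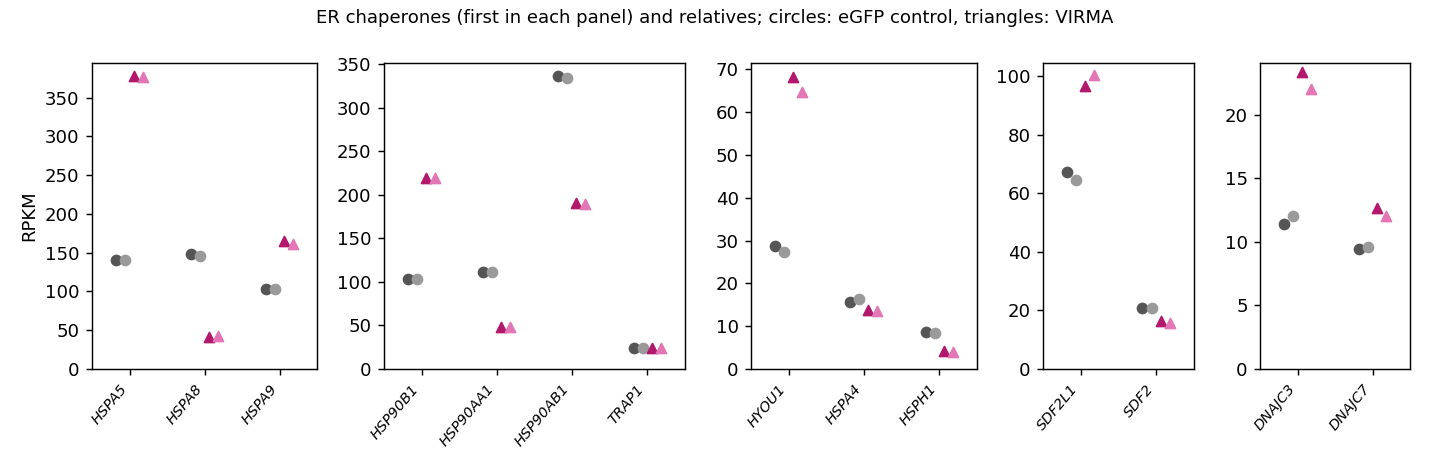
RPKM of ER chaperones (first in each panel) and their relatives outside the ER or their paralogues, in each library (circles, eGFP control; triangles, VIRMA-overexpressing; linear axes from 0). HSPA5 and HSPA8 lie side by side in control at 140.6 and 148.4 RPKM in replicate 1 and apart in VIRMA-overexpressing libraries at 378.1 and 41.4 RPKM.

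Other folding genes of the ER moved less evenly than the 10 members. The background for the list counts below is 35.1% of all tested genes called higher and 35.9% called lower. Of 9 other ER J-domain proteins 8 were tested, with 5 higher, 2 lower and a median log2 fold change of 0.26. DNAJC10 (ERdj5), a disulfide reductase that works with HSPA5, rose by 1.23 (edgeR adjusted p = 7.52e-25), which set it between DNAJB9 and DNAJB11. SEC63, which recruits HSPA5 to the translocon, rose by 0.66 (edgeR adjusted p = 1.25e-16). DNAJB12, a membrane J-protein whose J-domain faces the cytosol, fell by 0.19 (edgeR adjusted p = 7.62e-06), and DNAJC14 was called lower by a small margin, at -0.21 (edgeR adjusted p = 0.0487). That call was lost under limma-voom (adjusted p = 0.0502), DESeq2 (0.0929), upper-quartile scaling (0.198) and library totals (0.245), and without control replicate 1 (0.289) or VIRMA-overexpressing replicate 2 (0.353).

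All 10 enzymes and partners of the calnexin and calreticulin cycle were tested, with 7 higher, 2 lower and a median of 0.31, close to the value of CANX. The 7 and the median include CLGN, whose passage through the filter is described below. PDIA3, the disulfide isomerase that CALR and CANX recruit, rose by 0.44 (edgeR adjusted p = 9.81e-17). CLGN, a calnexin paralogue known from testis, had 191 and 177 counts in control and 841 and 903 in VIRMA-overexpressing libraries, a log2 fold change of 2.22 (edgeR adjusted p = 7.39e-17, SE 0.134), and it too passed the filter through the VIRMA-overexpressing libraries alone. CANX over CLGN in RPKM was 160.5 and 181.4 in control and 47.8 and 43.2 in VIRMA-overexpressing libraries. PRKCSH, the beta subunit of glucosidase II, fell by 0.41 (edgeR adjusted p = 1.42e-14), and the cargo lectin LMAN2 fell by 0.26 (edgeR adjusted p = 2.89e-09).

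Of 14 other lumen cofactors and KDEL receptors, 7 were higher and 4 lower, with a median of 0.16. MANF, a secreted cofactor of HSPA5, rose from 5789 and 5760 to 13234 and 13309 counts, a log2 fold change of 1.18 (edgeR adjusted p = 1.90e-25) that lay within the range of the members. HSPA13, a small HSP70 relative of microsomes, rose by 1.07 (edgeR adjusted p = 5.93e-16), and CRELD2 rose by 0.66 (edgeR adjusted p = 2.88e-19). SERPINH1, the collagen chaperone, fell by 0.52 (edgeR adjusted p = 3.23e-13).

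Of 8 ER prolyl isomerases 7 were tested, with 4 higher, 3 lower and a median of 0.09. Left-out libraries moved this median between 0.039 (without VIRMA-overexpressing replicate 1) and 0.14 (without VIRMA-overexpressing replicate 2), and it was 0.051 without control replicate 2. FKBP14 rose by 0.95 (edgeR adjusted p = 9.52e-20) and FKBP2 rose by 0.29 (edgeR adjusted p = 1.11e-09), while PPIC fell by 0.68 (edgeR adjusted p = 3.96e-10) and FKBP9 fell by 0.51 (edgeR adjusted p = 8.82e-12). Of 18 protein disulfide isomerases and partners 15 were tested, with 8 higher, 3 lower and a median of 0.17. PDIA4 rose by 0.59 (edgeR adjusted p = 9.71e-19), while TMX2 fell by 0.29 (edgeR adjusted p = 3.94e-09) and TMX1 fell by 0.45 (edgeR adjusted p = 1.02e-06). P4HB, an abundant disulfide isomerase of the lumen, was at 354.9 and 336.9 RPKM in control and 340.4 and 336.7 RPKM in VIRMA-overexpressing libraries. Its groups overlapped, with a log2 fold change of -0.03 (edgeR adjusted p = 0.279). These list counts are descriptions, to be read beside the 35.1% of all tested genes called higher and the 35.9% called lower. No test compared the lists with the members.

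**Figure D5:**
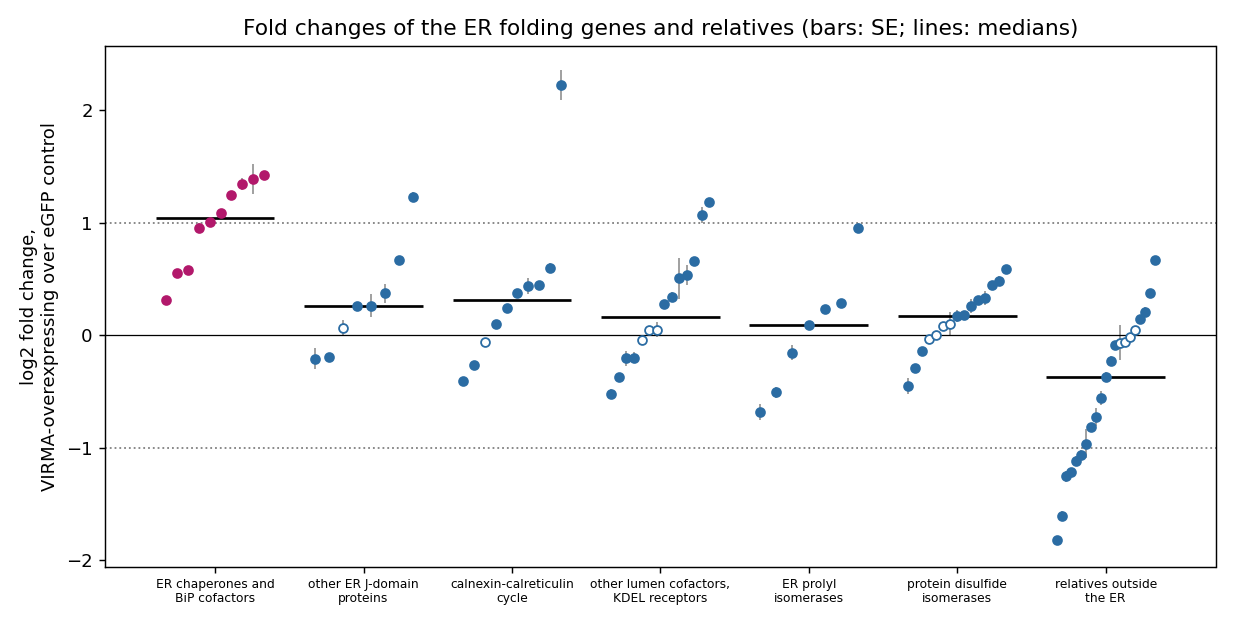
Log2 fold change (VIRMA-overexpressing over eGFP control) of each tested gene in the member set and in 6 related lists, with SE bars, list medians as lines and open symbols for genes not called at an edgeR adjusted p of 0.05. Dotted lines mark log2 fold changes of 1 and -1. The 10 members lie between 0.32 and 1.43 (median 1.04 with FICD included), the other ER lists hold genes on both sides of 0, and the median of the cytosolic and mitochondrial relatives is -0.37.

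Among members, the log2 fold changes of genes with an exact ERSE match, with an exact ERSE-II match and with no exact match overlapped. Genes with ERSE spanned log2 fold changes from 0.32 in CANX to 1.43 in HSPA5, and the ERSE-II genes stood at 0.58 (SDF2L1) and 1.24 (HYOU1). The J-domain genes with no exact match in their windows stood at 0.95 (DNAJC3), 1.00 (DNAJB11) and 1.34 (DNAJB9). Among all genes with a window, 44 held one of the 2 forms, and 37 of these were not members. This set was drawn by sequence after expression values were seen. Of the 22 non-members that were tested, 9 were called higher and 9 lower, with a median log2 fold change of -0.05. The shares over all tested genes were 35.1% higher and 35.9% lower. They ran up to 2.00 in NAV2 (edgeR adjusted p = 4.77e-24) and 1.69 in HERPUD1 (edgeR adjusted p = 8.49e-33), above every member, and down to -0.69 in SYNPO (edgeR adjusted p = 9.52e-17). CRELD2 stood at 0.66, SERP1 at 0.54, PDIA6 at 0.32 and XBP1 at 0.11.

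The genes whose log2 CPM across the 4 libraries ran closest to that of HSPA5, after each was centred on its mean over the libraries, were RPS6KA2 (distance 0.0181 on the log2 scale), KRT23 (0.0238), XPOT (0.0297), NUCB2 (0.0390) and SLC6A9 (0.0474). Their log2 fold changes lay between 1.40 and 1.46, and none is a member. By the same distance over all tested genes DNAJB9 ranked 50, HYOU1 69, FICD 158, HSP90B1 166, DNAJB11 253 and DNAJC3 310. SDF2L1 ranked 1316, CALR 1413 and CANX 3026. With 4 libraries in 2 groups this distance mainly records the size of the fold change.

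Several members overlap genes on the opposite strand, and although a kit that marks strand was used, the strand setting of the counting is not given in the sources used here. DNAJB9 shares 183 exonic bases (6.45% of its length) with THAP5 and 99 (3.49%) with PNPLA8 on the opposite strand, and these had log2 fold changes of 0.74 and 0.78. DNAJB11 shares 381 bases (6.65%) with TBCCD1, at 0.31, and HSP90B1 shares 121 bases (2.58%) with C12orf73, at 0.14, and 105 (2.24%) with TTC41P, at 23 to 87 counts. FICD shares 21 bases (0.492%) with SART3, which had 2623 to 3036 counts, more than FICD in every library. CANX shares 150 bases (2.41%) with CBY3, at 0 to 7 counts. HYOU1 (8.66%) and CALR (9.95%) overlap unnamed antisense rows at 0 counts in all libraries, and DNAJB11 (8.65%) overlaps one at 0 to 3 counts. Reads in these stretches could belong to either gene if strand was not used. DNAJB11 also shares 451 bases (7.87%) with an unnamed row on its own strand, at 0 counts in all libraries, where strand could not separate them. The HSP90B1 pseudogenes HSP90B2P and HSP90B3P had at most 10 counts in any library, 0.0221% of the HSP90B1 count or less.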

How the data were processed

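Per the submitters' notes, reads were trimmed (Trimmomatic 0.39), aligned to hg38 (STAR 2.5.2a) and counted over exons (featureCounts). The authors deposited raw, unnormalized counts per gene. The strand setting and the handling of reads with several alignments are not given in the sources used here. Control columns are named as such, and the remaining columns, which carry a number, were taken as VIRMA-overexpressing, which the VIRMA count checks. All per-sample columns were used.

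Genes with RPKM above 1 (by library totals) in at least 2 of 4 libraries were tested in edgeR 4.0.16 (R 4.3.3) with TMM factors of 0.969 to 1.03, no covariate beside group, and p-values adjusted by Benjamini-Hochberg. SE is the log2 fold change divided by the square root of F. The code was tested on simulated data. Duplicates differed by a median of 0.0626 (control) and 0.0609 (VIRMA-overexpressing) on the log2 scale, and chi-square per degree of freedom was 7.87 and 6.18, above sampling noise. The biological coefficient of variation was 3.93%. Members, related lists and tests were chosen with earlier results of these data known. Named genes outside the members were the 2 with the smallest adjusted p in each direction of a list, the family counterparts used in ratios, and the 5 nearest to HSPA5. HSPA1A, HSPA1B, HSPA13, DNAJA3, P4HB and the non-member motif genes were named after their values were seen. Alternatives were DESeq2 1.42.0, limma 3.58.1 (voom), other scalings and filters, a replicate block, and each library left out. Protein sequence was not analysed here.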

Additional observations from a re-analysis of the deposited data

How the results depend on the processing

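The 9 members above RPKM 1 in every library were called higher under every other scaling, filter and tool, and so was VIRMA. Of 12205 genes on the main filter, those runs called from 3958 (DESeq2) to 5092 (library totals) higher. With each library left out, the log2 fold changes of these members stayed positive. FICD, counted apart, was called higher with at least 10 counts in every library (1.36, edgeR adjusted p = 2.27e-09). Log2 fold changes ranged from 1.38 to 1.51 for HSPA5, 0.27 to 0.40 for CANX and 0.51 to 0.64 for CALR over the other scalings, filters and tools, and with each library left out from 1.16 to 1.65 for FICD and 1.24 to 1.45 for DNAJB9. DNAJB11 lay on the 2-fold line (0.96 to 1.09), and DNAJC3 passed it under upper-quartile scaling (1.03) and library totals (1.04). Tested against a 2-fold change rather than 0, HSPA5, HSP90B1, HYOU1 and DNAJB9 remained, with edgeR adjusted p from 6.75e-17 to 0.0120. FICD, which passed the filter through the VIRMA-overexpressing libraries alone, stood at an edgeR adjusted p of 0.0244. Counting only members above RPKM 1 in every library, a choice made after seeing the data, gave 9 called higher and a median of 1.00.

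Medians shifted with scaling, which moves all genes together (by 0.0715 under upper-quartile scaling and by 0.0835 under library totals), and with the filters, which also change which list genes are tested. For upper-quartile factors and library totals they were 1.12 and 1.13 for members, 0.33 and 0.34 for other ER J-domain proteins, 0.38 and 0.40 for the lectin cycle, 0.23 and 0.25 for cofactors, 0.16 and 0.17 for prolyl isomerases, 0.24 and 0.26 for disulfide isomerases and -0.30 and -0.28 for relatives. For filterByExpr, no filter and at least 10 counts in every library they were 1.00, 1.01 and 1.01 for members, 0.22, 0.23 and 0.23 for J-domain proteins, 0.27, 0.28 and 0.28 for the lectin cycle, 0.13, 0.14 and 0.14 for disulfide isomerases and -0.50, -0.49 and -0.49 for relatives. For cofactors they were 0.12 (filterByExpr) and 0.13 (no filter). The lectin cycle median was 0.31 with DESeq2 and with its size factors. The disulfide isomerases called lower went to 5 under each of these 3 filters, which test more genes. The J-domain proteins called lower went to 1, DNAJC14 being lost, under DESeq2, upper-quartile scaling, library totals and limma-voom, and the cause was not tested. The TRAP1 value reversed to 0.058 under upper-quartile scaling, 0.070 under library totals and 0.010 without control replicate 1, its range with a library left out being -0.042 to 0.010.

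With each library left out in turn, the J-domain proteins called lower ranged from 1 to 2 and their median from 0.22 to 0.27, the lectin cycle median from 0.30 to 0.32, the prolyl isomerase median from 0.039 to 0.14, the disulfide isomerase median from 0.15 to 0.18 and the relatives' median from -0.40 to -0.34. DNAJB1 was no longer called under upper-quartile scaling (-0.01), library totals (-0.0013), without control replicate 2 (-0.06) and without VIRMA-overexpressing replicate 1 (-0.07).

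Replicate numbers were shared between groups, but the deviations of same-numbered libraries correlated at only 0.08, so the numbers were not taken as pairing. With the replicate block, HSPA5 stood at 1.43 and the 9 members above RPKM 1 in every library were called higher, with FICD apart. With duplicates, spread rests on information shared across genes, and the counts say nothing of protein.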
